A study of Homo sapiens with 8 samples.

Results

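The genes described here encode the proteins of the cytosolic ribosome and of the mitochondrial ribosome, measured in A549, an epithelial line established from a human lung adenocarcinoma. The rule that chose them reads gene symbols: RPL and RPS followed by a number, with RPLP0, RPLP1, RPLP2 and RPSA, for the cytosolic set, and MRPL and MRPS followed by a number for the mitochondrial set. This gave 163 of 19158 genes, of which 85 were cytosolic (32 small subunit, 53 large subunit) and 78 were mitochondrial (29 small subunit, 49 large subunit). The study compared wild-type cells that received no dexamethasone with cells kept for 48 h in 1 µM dexamethasone, a synthetic glucocorticoid, with 4 culture wells and 1 RNA-seq library per well in each group. Both groups carried the replicate numbers 1, 3, 4 and 5 and the same batch label. All 8 libraries came from the same line, with no other genetic change or agent on the labels. The labels give separate wells and nothing further apart, so p-values measure the spread between wells, which may be technical.

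Cytosolic ribosomes translate the messenger RNAs of the nucleus and are among the largest investments of a growing cell. Most of their proteins are encoded by mRNAs that begin with a C followed by a run of pyrimidines, the 5′ terminal oligopyrimidine or TOP tract, which the RNA-binding protein LARP1 and the kinase MTOR use to control translation of the whole group. Mitochondrial ribosomes translate only the few mRNAs of the mitochondrial genome, which encode core subunits of the respiratory chain. All of their proteins are encoded in the nucleus, made by cytosolic ribosomes and imported, and several of their genes are known targets of the factors NRF1 and GABPA.

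The annotated starts of the genes show how the groups differ in sequence. RefSeq starts (GRCh38.p14) were found for 68 cytosolic genes with 84 starts and for 69 mitochondrial genes with 85 starts, and 26 members had none in the table. Each line below gives 15 bases before and 15 bases from the start on, on the coding strand from 5′ to 3′, and capitals mark a TOP tract, taken as a C within 3 bases of the start with at least 4 pyrimidines after it. RPLP0, RPS6 and RPL39 stand for the cytosolic group, RPL22 and RPS27 are shown beside their paralogs RPL22L1 and RPS27L, RPL7L1 is a further paralog, and MRPS6, MRPL17 and MRPL12 are mitochondrial.
RPLP0 (chr12:120201097-120201126, minus strand): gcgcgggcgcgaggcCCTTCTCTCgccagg
RPS6 (chr9:19380222-19380251, minus strand): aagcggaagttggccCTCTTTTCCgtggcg
RPL39 (chrX:119791616-119791645, minus strand): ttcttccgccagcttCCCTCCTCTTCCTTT
RPL22 (chr1:6199581-6199610, minus strand): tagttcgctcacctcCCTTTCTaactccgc
RPL22L1 (chr3:170870181-170870210, minus strand): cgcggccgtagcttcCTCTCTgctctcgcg
RPS27 (chr1:153990747-153990776, plus strand): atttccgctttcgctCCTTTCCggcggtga
RPS27L (chr15:63157463-63157492, minus strand): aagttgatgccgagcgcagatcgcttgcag
RPL7L1 (chr6:42879601-42879630, plus strand): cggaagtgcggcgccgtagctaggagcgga
MRPS6 (chr21:34073563-34073592, plus strand): gcgctctcggaccgtgCTTTCgccgcctgg
MRPL17 (chr11:6683326-6683355, minus strand): ccggctctaccttccagtttccagttccgg
MRPL12 (chr17:81703352-81703381, plus strand): aggtacggctagagcgtcatttccggctcg

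A tract lay at 64.3% of the cytosolic starts, at 10.6% of the mitochondrial starts and at 13.5% of 20620 starts of all genes in the tables. Among the paralogs, RPL22L1 had a tract at its start, and RPS27L, RPL7L1, RPL26L1 and RPL36AL were among the 14 tested cytosolic genes without one by this definition. A tract at a start other than the annotated one would be missed. Promoter elements were counted in the 300 bases around the start (250 before, 50 after). The ETS-type element CCGGAAG, the core bound by GABPA and its relatives, lay on either strand of 38.8% of mitochondrial and 33.3% of cytosolic starts, against 13.1% of all starts. The element AAGATGGC, similar to YY1 sites, lay at 27.1% of mitochondrial, 8.33% of cytosolic and 3.65% of all starts. The 2 elements can overlap by AAG. On either strand, the NRF1 palindrome, whose letters are the capitals of the last line below, lay at 1.18% of mitochondrial, 1.19% of cytosolic and 1.51% of all starts. On the coding strand, TATAAA within 40 bases before the start lay at 0%, 4.76% and 2.89%, in the same order. These are matches of letters, not sites shown to be bound.

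The next lines show the ETS-type element in capitals in 2 mitochondrial members and in 2 cytosolic paralogs with no TOP tract at the annotated start. The last line shows the NRF1 palindrome in the mitochondrial member that holds it. The capitals begin at -15 in MRPS12, -29 in MRPS34, -16 in RPL7L1, -19 in RPS27L and -81 in MRPL17 relative to the start. The MRPS34 window holds its next copy in lower case, beginning at -19, and a further copy began at -71.
MRPS12 (chr19:38930928-38930956, plus strand): acggatagcgcCCGGAAGaggctagaagc
MRPS34 (chr16:1773146-1773174, minus strand): gacaccggcctCTTCCGGtgacttccggc
RPL7L1 (chr6:42879589-42879617, plus strand): gcacagccgcgCCGGAAGtgcggcgccgt
RPS27L (chr15:63157479-63157507, minus strand): cagcttctatcCCGGAAGttgatgccgag
MRPL17 (chr11:6683402-6683431, minus strand): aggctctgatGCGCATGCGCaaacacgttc

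A further shared feature was the small nucleolar RNA, a guide RNA for ribosomal RNA modification that is often carried in introns. By GENCODE v44, 28 of 85 cytosolic genes (32.9%) enclosed an annotated snoRNA gene on their own strand, against 1 of 78 mitochondrial genes (1.28%) and 1.28% of 19065 matched genes.

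Levels were read as FPKM, fragments corrected for transcript length and for library size, so that genes of unlike length can be compared. Which transcript length was used for each gene is not given in the sources used here. Rankings and ratios between genes are uncertain to that extent. The libraries had 14798 to 15182 genes above 0. The epithelial keratins KRT8, KRT18, KRT19 and KRT7 averaged 54.7 to 2544 FPKM in the 2 groups, while EPCAM averaged 0.538 and 0.253 FPKM and CDH1 6.80 and 18.2 FPKM. PTPRC, CD3E and COL1A2 were listed at 0 throughout, PECAM1, VWF and CDH5 averaged at most 0.101 FPKM, COL3A1, DCN, LUM, PDGFRB and LYZ at most 0.286 FPKM, and COL1A1 (2.03 and 0.367 FPKM) and CD14 (2.48 and 1.323 FPKM) were present at low levels. FKBP5, a direct target of the glucocorticoid receptor, had 5.86, 6.76, 7.30 and 3.28 FPKM in untreated replicates 1, 3, 4 and 5 and 125, 166, 165 and 87.3 FPKM with dexamethasone, far higher in every treated library. The libraries numbered 5 stood apart in both groups: their scaling factors were 0.822 and 0.936, against 1.02 to 1.08 for the other 6. Set counts, set medians and some of the genes below are also given without untreated replicate 5 or without both. For the other genes only values with all libraries are printed, and more of the associated genes were called without both.

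Cytosolic ribosomal protein mRNAs were far more abundant than mitochondrial ones in every library. The cytosolic genes tested had a median of 408 FPKM (quartiles 199.8 and 671) over all libraries and the mitochondrial genes 23.9 FPKM (quartiles 15.3 and 39.6). Of the 100 most abundant genes outside the mitochondrial genome, 38 were cytosolic members and 0 were mitochondrial members. In the cytosolic set the highest member was 107 times the lowest, and without the 8 paralogs named with an L it was 46.7 times.

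**Figure D1:**
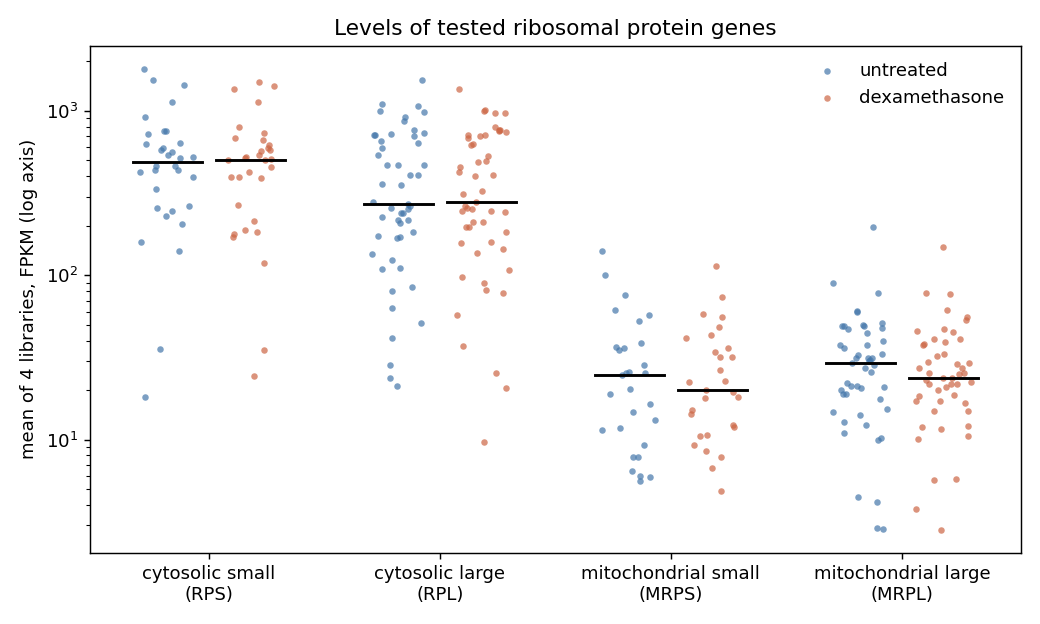
Mean FPKM of each tested member (log axis) in untreated (blue) and dexamethasone (orange) libraries, 4 per group, by ribosome and subunit, with the median as a black line. Nearly the same spread of levels is seen in both groups, and the cytosolic classes lie above the mitochondrial classes, with medians of 408 and 23.9 FPKM over all libraries.

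Among small subunit proteins, RPS2 and RPS16 were the most abundant. RPS2 had 1535, 1424, 1682 and 2561 FPKM untreated and 1275, 1603, 1348 and 1756 FPKM with dexamethasone, a log2 fold change of -0.25 at an SE of 0.285 (limma adjusted p = 0.541). The groups overlapped, and the highest untreated value was in replicate 5. Without untreated replicate 5 the log2 fold change of RPS2 was 0.01. RPS28 and RPS27L were lowest, at means of 35.5 ± 7.93 and 18.1 ± 6.63 FPKM untreated and 35.0 ± 4.35 and 24.4 ± 7.84 FPKM with dexamethasone (SD, n = 4).

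Among large subunit proteins, RPL41 (1534 ± 168 untreated, 1363 ± 131 FPKM with dexamethasone, SD, n = 4) and RPL19 (1096 ± 88.5 and 1000 ± 60.5 FPKM) were the most abundant. RPL7L1 and RPL39L, both paralogs, were the lowest of those tested. RPL10L was listed at 0 in all 8 libraries. RPL3L, whose known site of expression is striated muscle, had 0.123, 0.221, 0.0481 and 0 FPKM untreated and was listed at 0 in the 4 dexamethasone libraries, below the filter for testing (at least 0.5 FPKM in at least 4 libraries).

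In the mitochondrial small subunit MRPS12, the counterpart of the bacterial protein at the decoding site, and MRPS34 led with 141 ± 31.0 and 99.7 ± 15.6 FPKM untreated and 113 ± 14 and 73.7 ± 10.7 FPKM with dexamethasone (SD, n = 4). MRPS31 and MRPS16 were lowest, at 5.56 ± 1.80 and 6.46 ± 1.13 FPKM untreated and 6.67 ± 0.764 and 4.84 ± 1.01 FPKM with dexamethasone. In the large subunit MRPL12, a protein of the stalk that recruits translation factors, had 196 ± 40.3 FPKM untreated and 149 ± 21.2 FPKM with dexamethasone, and MRPL24 had 89.6 ± 16.6 and 77.2 ± 8.87 FPKM. MRPL30 and MRPL42 had means under 4 FPKM in both groups.

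The main question was whether 48 h of dexamethasone changed either set. The summed levels of the groups overlapped for both sets. The cytosolic mRNAs made up 11.2%, 10.6%, 11.3% and 12.5% of the summed FPKM outside the mitochondrial genome in untreated replicates 1, 3, 4 and 5, and 12.1%, 11.3%, 11.6% and 12.4% with dexamethasone. The ratio of the group means was 1.04. The mitochondrial set held 0.728%, 0.726%, 0.75% and 0.764% untreated and 0.715%, 0.692%, 0.729% and 0.728% with dexamethasone, a ratio of 0.965. Its means were 0.742% ± 0.0184 untreated and 0.716% ± 0.0169 with dexamethasone (SD, n = 4), so the difference of -0.0258 percentage points was larger than either SD. The sum of the cytosolic set was 15.5, 14.6, 15.1 and 16.4 times that of the mitochondrial set in untreated wells and 16.9, 16.3, 15.9 and 17.0 times with dexamethasone. The highest untreated ratio, in replicate 5, lay among the dexamethasone values, and the other 3 untreated ratios lay below all of them. In bulk RNA a lower share of a gene set and fewer cells that express it cannot be told apart.

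**Figure D2:**
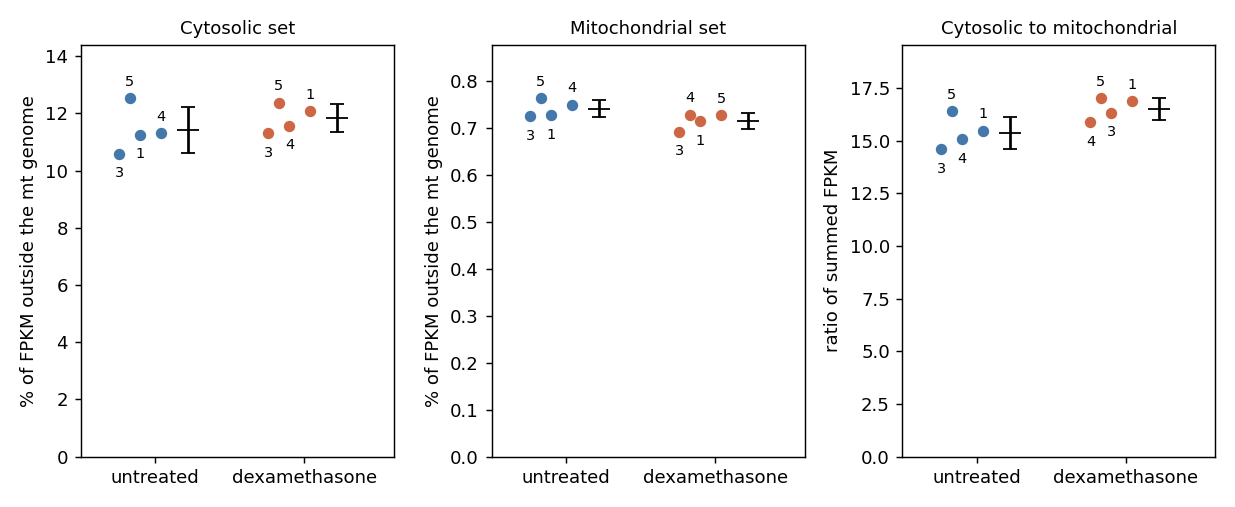
Summed FPKM of the cytosolic set and of the mitochondrial set as a percent of all FPKM outside the mitochondrial genome, and the ratio of the 2 sums, for each of 4 untreated and 4 dexamethasone libraries (points labelled by replicate number, horizontal mark and bars as mean and SD). The cytosolic share lies between 10.6% and 12.5% in all libraries and the mitochondrial share between 0.692% and 0.764%, with overlapping groups.

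Gene by gene, few members passed the test, in a comparison where many other genes did. Of 12161 genes tested, 26.9% had a limma adjusted p under 0.05, with 12.3% higher and 14.6% lower after dexamethasone. Of the 83 cytosolic genes tested 1 was called, RPL39L, which fell. Of the 78 mitochondrial genes tested 4 were called: MRPS6 and MRPL17 fell and MRPS5 and MRPS36 rose. Both counts, at 1.21% and 5.13%, lay below the share of all genes, and whether the sets differ from each other was not tested. With the replicate number as a block, 8 cytosolic (9.64%) and 22 mitochondrial genes (28.2%) were called, against 47.3% of all genes. The labels do not say that the numbers pair the wells. In the fit by group only, 3 cytosolic (3.61%) and 9 mitochondrial genes (11.5%) had an unadjusted p under 0.05, against 39.1% of all genes. The median log2 fold change was -0.04 for the cytosolic set and -0.08 for the mitochondrial set, beside 0.006 for all genes. These signs depended on the setting: with each library scaled to the same sum outside the mitochondrial genome the medians were 0.07 and 0.02 (all genes 0.09), and without untreated replicate 5 they were 0.08 and 0.01. With the main scaling and with the common sum alike, the medians of both sets lay below that of all genes. Other settings differed. Without both libraries numbered 5 the medians were 0.017 and -0.034 (all genes 0.004). With the GC trend of each library removed they were 0.009 and -0.032 (all genes 0.006). With both changes they were 0.07 and 0.02, both above the 0.009 of all genes.

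**Figure D3:**
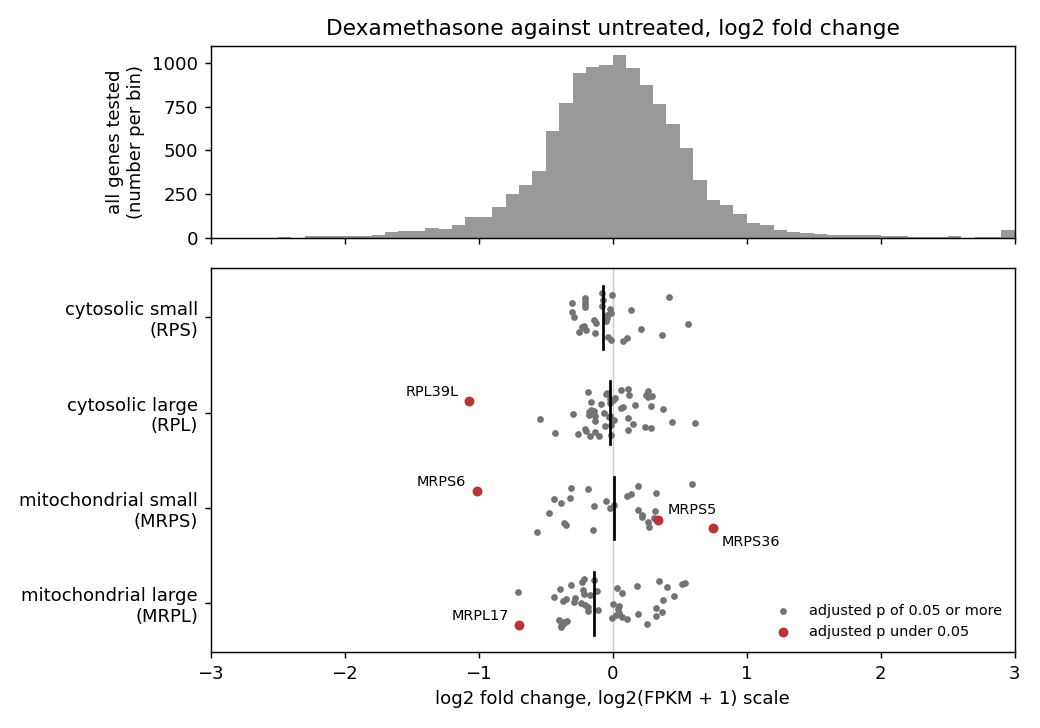
Log2 fold changes after dexamethasone on the log2(FPKM + 1) scale: all 12161 tested genes as a histogram (top, values beyond 3 counted in the end bins) and the members by class (bottom, black line at the median, vertical position arbitrary). Red points are the 5 members with a limma adjusted p under 0.05, and the other members lie mostly within 0.5 of zero.

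The cytosolic fold changes were small. Their median absolute log2 fold change was 0.14, against 0.32 for all genes, although their median SE of 0.22 was larger than the 0.170 of all genes. None of the 32 small subunit genes was called at the adjusted p by limma, 0 had an unadjusted p under 0.05, and 25 of their fold changes lay below 0 and 7 above. Their median log2 fold change was -0.08, beside 0.006 for all genes. It was -0.008 without both libraries numbered 5 (all genes 0.004) and 0.0036 with the GC trend of each library removed (all genes 0.006). With scaling to a common sum outside the mitochondrial genome it was 0.03, still below the 0.09 of all genes. The 95% interval of the fold change lay within 1.5-fold either way for 28 of 83 cytosolic and 25 of 78 mitochondrial genes, against 31.9% of all genes. It lay within 2-fold for 73 (87.95%) and 61 (78.21%), against 74.05% of all genes. For the other members a change of that size was not excluded, and a p above the threshold does not show that they were equal.

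RPL5 and RPL11, which with 5S ribosomal RNA bind MDM2 when ribosome assembly is disturbed, showed no called change with all 8 libraries. Without both libraries numbered 5, RPL5 was called higher. RPL5 had 190.4, 185, 205 and 113 FPKM untreated and 247, 213, 222 and 163 FPKM with dexamethasone (log2 fold change 0.30 with an SE of 0.161, limma adjusted p = 0.201). RPL11 had 256, 179, 236 and 229.7 FPKM and 233, 178, 216 and 222 FPKM (log2 fold change -0.09, SE 0.190, limma adjusted p = 0.744). RPLP0, the base of the stalk and a common reference gene, had means of 761 ± 198 and 768 ± 212 FPKM (SD, n = 4), and RPSA, which is also known as a laminin receptor, had 923 ± 201 and 797 ± 98.0 FPKM. In all 4 genes the groups overlapped.

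RPL39L was the cytosolic exception. RPL39L (ENSG00000163923, chromosome 3, 187120948 to 187180908, minus strand) encodes the paralog of RPL39, a small protein that lines the exit tunnel of the large subunit, and is best known from male germ cells and from many cancer cell lines. It had 20.8, 19.4, 20.1 and 24.6 FPKM in untreated replicates 1, 3, 4 and 5 and 8.06, 9.48, 10.5 and 10.5 FPKM with dexamethasone. Every dexamethasone value lay below every untreated value. RPL39L fell by 1.07 on the log2 scale (SE 0.182, limma adjusted p = 0.00218), and it was called in all 23 other settings tried, at -1.16 to -0.90. RPL39 itself had 718 ± 74.7 FPKM untreated and 713 ± 37.5 FPKM with dexamethasone (SD, n = 4; log2 fold change -0.01, SE 0.159, limma adjusted p = 0.959). RPL39L was thus 2.61%, 2.99%, 2.62% and 3.73% of RPL39 in untreated wells and 1.11%, 1.31%, 1.6% and 1.41% with dexamethasone, and the groups did not overlap.

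The other paralogs did not pass the test. RPL26L1 was 11.7%, 11.6%, 9.72% and 15.7% of RPL26 untreated and 7.60%, 9.60%, 9.53% and 8.45% with dexamethasone, so this ratio did not overlap between groups. Neither gene of the pair was called: the log2 fold change was -0.16 for RPL26L1 (SE 0.134, limma adjusted p = 0.389) and 0.29 for RPL26 (SE 0.191, limma adjusted p = 0.293). RPL22L1 varied most among wells, with 32.3, 30.6, 46.1 and 5.03 FPKM untreated and 17.8, 31.7, 34.3 and 18.0 FPKM with dexamethasone, and the untreated value in replicate 5 was below all others. As a percent of its counterpart RPL22 it was 42.3 ± 22.6 untreated and 33.7 ± 11.6 with dexamethasone (SD, n = 4). RPL36AL was 132.5% ± 97.1 of RPL36A untreated, where replicate 5 alone had 277%, and 79.1% ± 13.2 with dexamethasone. RPL7L1 (10.8% ± 5.69 and 6.45% ± 2.04 of RPL7) and RPS27L, a p53-responsive gene (3.36% ± 1.02 and 4.22% ± 1.61 of RPS27), also overlapped between groups.

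Paralogs with similar sequence can share reads, as can the processed pseudogenes of cytosolic ribosomal protein genes, and how the authors handled them is not given in the sources used here. Levels of single cytosolic members are uncertain to that extent. The strand setting of the counting is not given either, and 26 cytosolic and 26 mitochondrial genes overlap a protein-coding gene on the opposite strand, while 8 and 13 overlap one on the same strand.

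The mitochondrial small subunit held 3 of the 4 called mitochondrial genes. MRPS6 (ENSG00000243927, chromosome 21, 34073224 to 34143034, plus strand), a protein of the small subunit platform, had 24.7, 21.8, 25.2 and 30.2 FPKM untreated and 10.7, 12.8, 10.6 and 14.9 FPKM with dexamethasone. The groups did not overlap. MRPS6 fell by 1.01 on the log2 scale (SE 0.206, limma adjusted p = 0.00574) and was called in all 23 other settings, at -1.13 to -0.85. Its gene encloses SLC5A3, a sodium and myo-inositol transporter gene on the same strand, which had 1.96 ± 0.925 FPKM untreated and 1.39 ± 0.593 FPKM with dexamethasone (SD, n = 4; log2 fold change -0.27, SE 0.245, limma adjusted p = 0.431).

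MRPS36 (ENSG00000134056, chromosome 5, 69217760 to 69230129, plus strand) was named as a ribosomal protein and is also known, as KGD4, as a subunit of the 2-oxoglutarate dehydrogenase complex of the citric acid cycle. It had 7.30, 5.24, 7.90 and 3.56 FPKM untreated and 12.7, 9.16, 11.5 and 8.75 FPKM with dexamethasone, with no overlap. MRPS36 rose by 0.75 on the log2 scale (SE 0.181, limma adjusted p = 0.0136) and was called in 20 of 23 other settings. The 3 settings that lost the call were those that removed the trend of each library on transcript GC content. With that trend removed and nothing else changed, its log2 fold change was 0.34 (limma adjusted p = 0.137).

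MRPS5 (ENSG00000144029, chromosome 2, 95087207 to 95149434, minus strand), a small subunit protein near the mRNA entry, had 25, 26.7, 27.5 and 19.9 FPKM untreated and 35.5, 29.6, 31.1 and 30.5 FPKM with dexamethasone. The groups did not overlap, but the gap between the highest untreated and the lowest dexamethasone value was small. MRPS5 rose by 0.34 on the log2 scale (SE 0.109, limma adjusted p = 0.0444). It was called in 14 of 23 other settings: the call was lost without any 1 library other than untreated replicate 5 (limma adjusted p up to 0.123), without scaling between libraries (0.0651) and with the GC trend removed (log2 fold change 0.20, limma adjusted p = 0.161).

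The large subunit protein MRPL17 (ENSG00000158042, chromosome 11, 6680782 to 6683401, minus strand), whose promoter window holds the NRF1 palindrome printed above, had 42.2, 40.3, 49.4 and 60.3 FPKM untreated and 23.7, 31.7, 32.5 and 29.3 FPKM with dexamethasone. All dexamethasone values lay below the untreated ones. Whether the NRF1 palindrome has a part in this was not tested. MRPL17 fell by 0.70 on the log2 scale (SE 0.215, limma adjusted p = 0.0392) and was called in 18 of 23 other settings. The call was lost without untreated replicate 4 (limma adjusted p = 0.0681) or dexamethasone replicate 1 (0.114), 3 (0.0677) or 4 (0.0651), and with no filter on low values (0.0577).

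**Figure D4:**
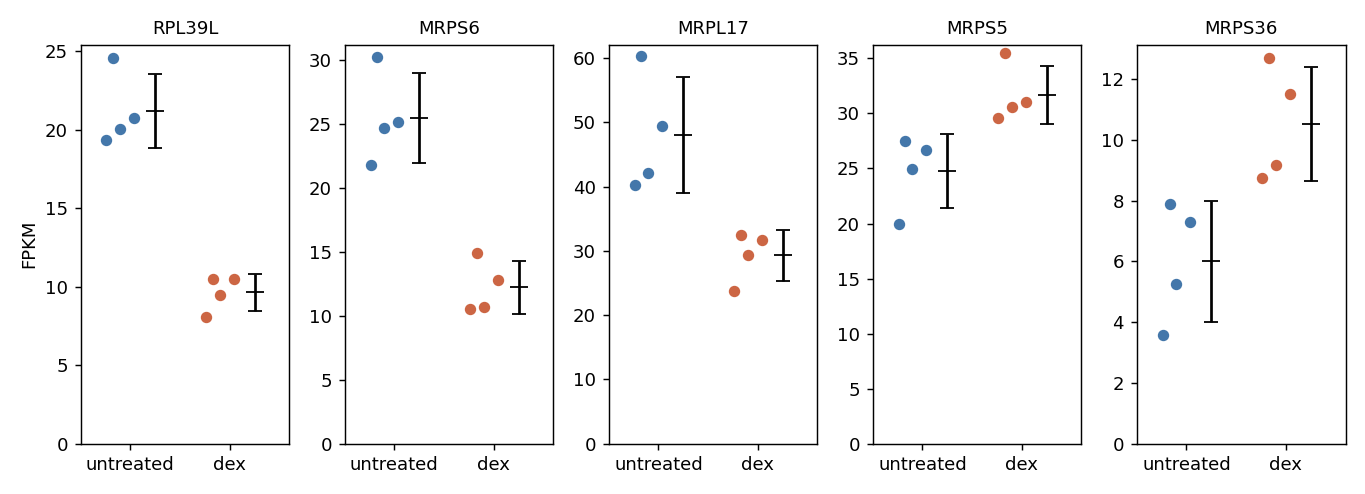
FPKM of the 5 called members in each of 4 untreated and 4 dexamethasone libraries (points), with mean and SD beside them. RPL39L, MRPS6 and MRPL17 lie lower and MRPS5 and MRPS36 higher with dexamethasone, and in each gene the groups do not overlap.

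With the called genes included, the 4 values of each group did not overlap for 2 cytosolic genes (2.41%) and 9 mitochondrial genes (11.5%), against 31.6% of all genes tested. These were counted on scaled values, and the genes that were not called were named after their values were seen. In the cytosolic set the second was RPL34 (138, 122, 145 and 90.3 FPKM untreated, 180.1, 162, 161 and 136 FPKM with dexamethasone, log2 fold change 0.37, SE 0.135, limma adjusted p = 0.0691). In the mitochondrial set the others were MRPL15, MRPL33, MRPS14 and MRPS23, with positive log2 fold changes of 0.19 to 0.59, and MRPS11 at -0.48. The lowest log2 fold change of the mitochondrial large subunit, -0.70, was that of MRPL49, which was not called (limma adjusted p = 0.142). Its untreated replicate 3 had 43.2 FPKM, and the other 7 libraries had 11.4 to 18.7 FPKM. The 3 paralogs of the bacterial protein S18 kept their order in every library, with MRPS18B at 53.5% ± 0.718, MRPS18A at 35.4% ± 3.79 and MRPS18C at 11.1% ± 3.49 of their sum untreated and 54.4% ± 1.91, 32.0% ± 2.27 and 13.7% ± 3.41 with dexamethasone (SD, n = 4).

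The sign of a member's fold change went with the base composition of its transcript. The same relation over all genes is not given here, so it is not shown to be particular to the members. Removing the GC trend of each library also lowered the median SE of all genes, from 0.170 to 0.113. Among mitochondrial genes the 26 with the lowest GC content (34.8% to 44.6%) had 25 positive log2 fold changes and a median of 0.31, and the 26 with the highest (52.3% to 66.7%) had 24 negative ones and a median of -0.33. Across the 78 genes, which are not independent replicates, Pearson's r between GC content and log2 fold change was -0.66. In the cytosolic set the pattern was shallower, with 17 of 27 positive in the lowest and 22 of 27 negative in the highest GC group, and r was -0.43 over 83 genes. The libraries numbered 5 differed from their own groups along the same axis. The deviation of untreated replicate 5 from the mean of the other 3 untreated wells had an r with GC content of 0.57 in the cytosolic and 0.73 in the mitochondrial genes, and dexamethasone replicate 5 had 0.56 and 0.63. Without both libraries r was -0.29 and -0.57, and with the GC trend of each library removed it was 0.23 and -0.08. The loss of the downward slope follows from the removal itself, and the cytosolic r then had the opposite sign. The part of GC content in the fold changes was not tested further.

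**Figure D5:**
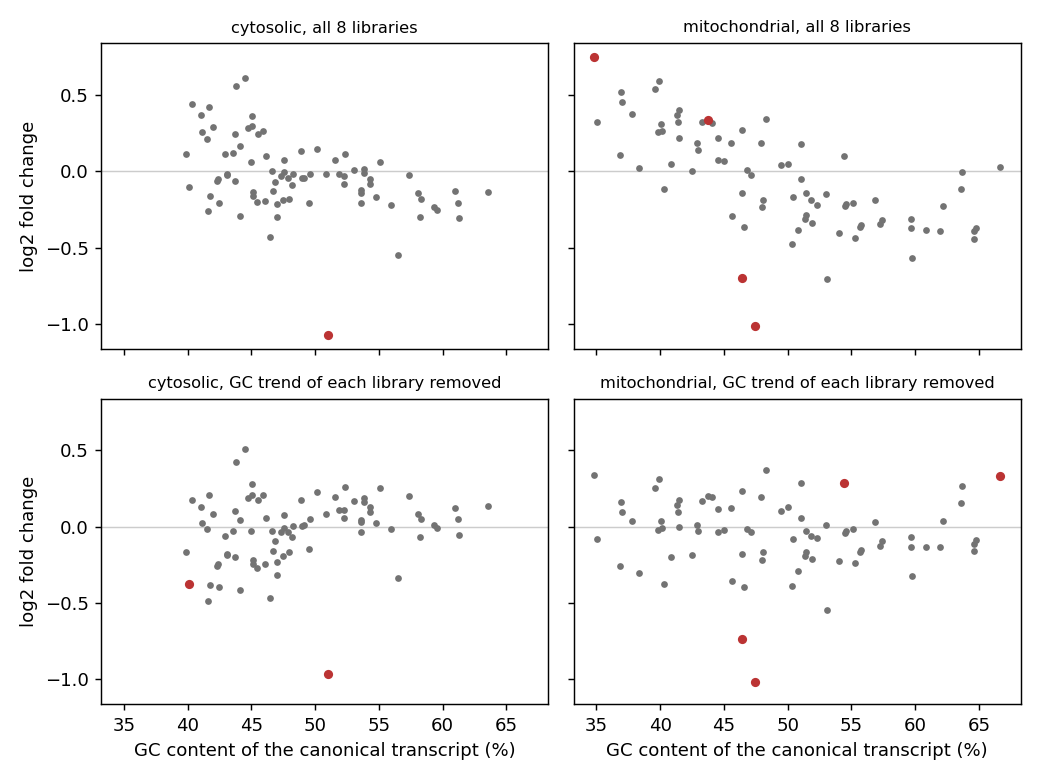
Log2 fold change of each tested member against the GC content of its canonical transcript, for the cytosolic (left) and mitochondrial (right) set, in all 8 libraries (top) and with the GC trend of each library removed (bottom), with called genes in red. The downward slope in the top panels (r of -0.43 and -0.66) is not seen in the bottom panels (0.23 and -0.08). The removal takes that trend out by design, and the cytosolic slope then runs upward. RPL39L, MRPS6 and MRPL17 stay low in the bottom panels.

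More members were called once both libraries numbered 5 were left out. Then 5 cytosolic genes were called, with RPL4, RPL5, RPL14 and RPL34 higher and RPL39L lower, and 20 mitochondrial genes were called, 8 higher and 12 lower, while 45% of all genes were called. The median SE of the mitochondrial genes was then 0.0957, against 0.208 with all libraries. RPL14 had 47.2, 44.5, 44.2 and 69.2 FPKM untreated and 53.4, 73.2, 121 and 79.1 FPKM with dexamethasone, a log2 fold change of 0.62 with all libraries (limma adjusted p = 0.151) and of 0.81 without both (limma adjusted p = 0.0463). With the GC trend removed in all 8 libraries 2 cytosolic genes (RPL39L and RPL31, both lower) and 4 mitochondrial genes (MRPS6 and MRPL17 lower, MRPL34 and MRPL41 higher) were called, against 37.2% of all genes. With both changes together 9 cytosolic genes, 7 of them higher, and 8 mitochondrial genes, 4 of them higher, were called, against 42.6% of all genes.

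Cytosolic genes with and without a TOP tract, judged by letters at the annotated start only, overlapped in fold change. The 53 tested cytosolic genes with a tract had a median level of 509.8 FPKM and a median log2 fold change of -0.02 (-0.54 to 0.62). The 14 without one had 213 FPKM and -0.12 (-0.31 to 0.42). These 14 were not shown to lack a tract in A549, so the values do not compare TOP mRNAs with other mRNAs. Of 12 other genes with TOP mRNAs, mostly translation factors, 11 had a log2 fold change above 0 and 1 below, with a median of 0.22. Among all 12161 genes tested 6150 lay above 0, with a median of 0.006. Whether the GC trend described above has a part in this was not tested. Of the 12, 1 was called, a share of 8.33% beside 26.9% of all genes. This was NAP1L1, a histone chaperone, with 66.9, 49.9, 53.7 and 36.0 FPKM untreated and 132, 70.2, 70.3 and 70.5 FPKM with dexamethasone (log2 fold change 0.69, SE 0.222, limma adjusted p = 0.0467). NAP1L1 was called in 8 of 23 other settings. The call was lost without any 1 library other than untreated replicate 1, and NAP1L1 had a log2 fold change of 0.48 without dexamethasone replicate 1 (limma adjusted p = 0.0853). Its highest limma adjusted p was 0.279, without both libraries numbered 5 and with the GC trend removed. Over all settings its lowest log2 fold change was 0.34. EIF3E, a subunit of an initiation factor, had 49.0 ± 25.5 and 98.2 ± 39.6 FPKM (SD, n = 4; log2 fold change 1.08, limma adjusted p = 0.0787). LARP1 had 84.8 ± 10.5 and 81.1 ± 4.88 FPKM (log2 fold change -0.07, limma adjusted p = 0.699).

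Some proteins of the 2 ribosomes carry other names and were counted apart. RACK1, a scaffold on the small subunit of the cytosolic ribosome, had 344 ± 13.5 and 279 ± 20.7 FPKM (log2 fold change -0.32, limma adjusted p = 0.163). Of 5 further mitochondrial ribosome proteins 0 were called by limma, beside 26.9% of all genes, and 0 had an unadjusted p under 0.05, beside 39.1%. AURKAIP1 had 51.9 ± 11 and 38.7 ± 5.36 FPKM, and GADD45GIP1 had 22.0 ± 5.55 and 16.7 ± 3.21 FPKM (SD, n = 4).

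Among 16 chaperones of ribosomal proteins and regulators of TOP mRNAs 1 was called, a share of 6.25% beside 26.9% of all genes. GRWD1, which escorts RPL3 to the ribosome, had 34.3, 35.7, 36.6 and 47.0 FPKM untreated and 19.8, 22.5, 23.3 and 27.6 FPKM with dexamethasone. The groups did not overlap, and GRWD1 fell by 0.71 on the log2 scale (SE 0.206, limma adjusted p = 0.031, called in 20 of 23 other settings, lost without dexamethasone replicate 1, 3 or 4 at 0.094, 0.0724 and 0.0692). Its client RPL3 had 636 ± 73.5 and 617 ± 61.8 FPKM (log2 fold change -0.05, limma adjusted p = 0.861). PDCD2L, related to the chaperone of RPS2, had 21.4 ± 1.6 and 15.6 ± 1.52 FPKM (log2 fold change -0.45, limma adjusted p = 0.0523).

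For the mitochondrial side, 8 of 10 translation factors had a log2 fold change above 0 and 2 below, with a median of 0.18. Among all 12161 genes tested 6150 lay above 0, with a median of 0.006. Of the 10, 4 (40%) had an unadjusted p under 0.05, beside 39.1% of all genes. At the adjusted p 1 (10%) was called, beside 26.9% of all genes. This was GFM2, which splits mitochondrial ribosomes after translation, with 11.3, 12.1, 13.2 and 6.50 FPKM untreated and 19.0, 16.2, 17.4 and 11.6 FPKM with dexamethasone (log2 fold change 0.55, SE 0.167, limma adjusted p = 0.0378, called in 16 of 23 other settings). Settings that lost the call included those without untreated replicate 1 or 3 or dexamethasone replicate 1, 3 or 4, at a limma adjusted p of up to 0.111. Over all settings the log2 fold change of GFM2 ranged from 0.32 to 0.66. The initiation factor MTIF2 had 10.9 ± 4.06 and 17.0 ± 4.05 FPKM (log2 fold change 0.64, limma adjusted p = 0.0632). Of 16 assembly and ribosomal RNA modification factors 1 was called, a share of 6.25% beside 26.9% of all genes. This was MTG2, a GTPase of large subunit assembly, with 15, 18.2, 15.8 and 15.3 FPKM untreated and 12.4, 12, 12.7 and 11.8 FPKM with dexamethasone (log2 fold change -0.37, SE 0.118, limma adjusted p = 0.0417, called in 12 of 23 other settings). The call was lost without any 1 library other than untreated replicate 5, and with the GC trend removed the log2 fold change of MTG2 was -0.15. DHX30, a helicase of the same process, had 34.8 ± 2.85 and 23.8 ± 3.10 FPKM (log2 fold change -0.54, limma adjusted p = 0.0509).

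Of the 9 tested genes for transcription of mitochondrial genes 3 were called, a share of 33.3% beside 26.9% of all genes. NRF1, nuclear respiratory factor, had 8.50, 8.31, 8.26 and 8.23 FPKM untreated and 5.22, 4.21, 4.54 and 5.03 FPKM with dexamethasone, with no overlap. NRF1 fell by 0.71 on the log2 scale (SE 0.133, limma adjusted p = 0.00357) and was called in all 23 other settings. PPARGC1B, a transcriptional coactivator of mitochondrial biogenesis, had 1.96, 2.01, 2.43 and 1.00 FPKM untreated and 6.29, 5.29, 5.38 and 4.13 FPKM with dexamethasone. It rose by 1.16 on the log2(FPKM + 1) scale (SE 0.148, limma adjusted p = 0.000411, called in all 22 other settings that tested it), and its groups did not overlap. The third, named after its values were seen, was POLRMT, the mitochondrial RNA polymerase, with 27.3, 28, 27.5 and 39.3 FPKM untreated and 16.4, 15.5, 15.6 and 20.9 FPKM with dexamethasone (log2 fold change -0.80, SE 0.222, limma adjusted p = 0.0246). POLRMT was called in 20 of 23 other settings and lost without dexamethasone replicate 1, 3 or 4 (limma adjusted p = 0.0688, 0.0647 and 0.0649). GABPA had 1.45 ± 0.778 and 2.21 ± 0.728 FPKM (SD, n = 4; log2 fold change 0.44, limma adjusted p = 0.201).

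The mRNAs that mitochondrial ribosomes translate were variable between wells. In the fit by group only, 0 of the 13 were called by limma and 0 had an unadjusted p under 0.05, beside 26.9% and 39.1% of all genes. All 13 log2 fold changes lay above 0, with a median of 0.65 and a median SE of 0.497. The 13 genes varied together between wells, with replicate 1 highest and replicate 5 lowest in both groups. Their signs are therefore not independent observations. MT-CO2, a subunit of cytochrome c oxidase, had 3740, 2046, 2119 and 1325 FPKM untreated and 5497, 3377, 3896 and 1697 FPKM with dexamethasone. The groups overlapped, and the replicate numbers 1 and 5 were highest and lowest in both. MT-CO3 had 3125 ± 1275 and 4732 ± 1872 FPKM (SD, n = 4; log2 fold change 0.58, limma adjusted p = 0.236). Together the genes of the mitochondrial genome held 6.04%, 3.45%, 3.71% and 1.74% of all FPKM untreated and 9.44%, 5.91%, 6.30% and 2.55% with dexamethasone. At each replicate number the dexamethasone share was the higher, and this share was not tested. When the mitochondrial genome was counted in the total, the cytosolic share was 11% ± 0.915 untreated and 11.1% ± 0.643 with dexamethasone, and the mitochondrial ribosomal protein share was 0.714% ± 0.0289 and 0.673% ± 0.0288 (SD, n = 4).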

How the data were processed

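RNA-seq values of 8 libraries (4 untreated, 4 dexamethasone) were used as deposited. Per the submitters' processing notes, reads were checked with FastQC 0.11.9, trimmed with Cutadapt 3.4, aligned to GRCh38 with STAR 2.7.9a and quantified with featureCounts of Subread 2.0.3, and the authors tested differences with DESeq2 1.32.0. The annotation release, the strand setting and the step that made the values are not given in the sources used here. The authors deposited the values as counts, but they are not whole numbers. They were read as FPKM because value times transcript length summed to 80.5% to 91.5% of 1e+09, the total expected of FPKM. No read counts were recovered, and no count test or counting interval was used.

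Scaling between libraries used trimmed means of M values (0.3 of M and 0.05 of A trimmed). On log2(FPKM + 1), limma 3.58.1 was run in R 4.3.3 (eBayes with trend and robust, group only, two-sided) over all genes with at least 0.5 FPKM in at least 4 libraries. Calls were made at a Benjamini-Hochberg adjusted p under 0.05. Fold changes on this scale understate those of low genes. Printed FPKM are as deposited, and shares are of summed FPKM. The procedure was tested on simulated data. Strand, overlaps, GC content and length came from GENCODE v44, which held all 163 members, and start sequences from RefSeq (GRCh38.p14). Gene coordinates are those given with the values.

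The genes named are the 2 highest and 2 lowest of each class, the called members, all paralogs with their counterparts, RPL5, RPL11, RPLP0 and RPSA, the 2 genes with the smallest p in each associated list, NRF1, GABPA, LARP1 and FKBP5, and 16 further genes named after their values were seen. Not every gene chosen this way is reported here. The members and lists were chosen with earlier results of these data known. Alternatives changed the scaling, pseudocount, filter, variance model, GC, length and replicate terms and the libraries used.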

Additional observations from a re-analysis of the deposited data

Results flagged for a closer look

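In 19 of 156 groups of 4 libraries examined, for the named genes, the shares of both sets and their ratio, 1 library lay far from the other 3 by Dixon's 95% criterion. Chance would flag about 1 in 20 groups, or 7.8 here, and genes measured in the same library are not independent. Untreated replicate 5 accounted for 10 of these and dexamethasone replicate 5 for 6.

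In untreated replicate 5 the value was above the other 3 untreated libraries in each case: RPL19 had 1227 FPKM (others 1033 to 1064), MRPS12 had 187.5 FPKM (122 to 129.6), MRPL12 had 256 FPKM (171 to 181.5), MRPL24 had 114 FPKM (79.5 to 84.6) and RPL36AL had 352 FPKM (189 to 215). MRPS18A had 33.5 FPKM there (22.4 to 23.9), AURKAIP1 had 68.3 FPKM (45.4 to 47.4), RPL14 had 69.2 FPKM (44.2 to 47.2), MRPL41 had 54.6 FPKM (34.0 to 35.7) and POLRMT had 39.3 FPKM (27.3 to 28). Dexamethasone replicate 5 was above its group for RPS16 at 1750 FPKM (others 1264 to 1344), RPS28 at 41.5 FPKM (31.8 to 33.4), MRPS18A at 24.1 FPKM (18.6 to 19.0), RPLP0 at 1082 FPKM (622 to 694), RPSA at 944 FPKM (744 to 753) and POLRMT at 20.9 FPKM (15.5 to 16.4). MRPS18A and POLRMT were thus high in both libraries numbered 5.

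The other 3 cases were RPL41 in dexamethasone replicate 3, low at 1169 FPKM (others 1413 to 1450), MRPS16 in untreated replicate 4, low at 4.77 FPKM (others 6.82 to 7.14), and NAP1L1 in dexamethasone replicate 1, high at 132 FPKM (others 70.2 to 70.5).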

How the results depend on the processing

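Of 1675 values for 73 named genes under 23 other settings, 1531 kept their side of the threshold, 56 lost a call, 88 gained one, and 0 called values changed sign; 94 values of genes that were not called changed sign. The compared counts were 0 cytosolic members higher and 1 lower, 2 mitochondrial members higher and 2 lower, 5 members in all and 7 associated genes, against 26.9% of all genes. Unscaled values gave 1 mitochondrial member higher, 4 lower and 11 associated genes. Scaling to a common sum outside the mitochondrial genome, or the simpler variance model, gave 1 cytosolic and 3 mitochondrial members higher and 7 members in all. With the common sum 25.2% of all genes were called. With no filter 1 mitochondrial member was lower. Removing the GC trend gave 2 cytosolic members lower and 16 associated genes, against 37.2% of all genes. Without both libraries numbered 5 there were 4 cytosolic members higher, 8 mitochondrial higher and 12 lower, 25 members and 25 associated genes, against 45% of all genes. With the GC trend also removed, a setting chosen after seeing the data, as was the total with the mitochondrial genome, there were 7 and 2 cytosolic members higher and lower, 4 and 4 mitochondrial members, 17 members and 18 associated genes, against 42.6% of all genes.

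The replicate numbers were not taken to pair the wells, since the labels tie no wells across the groups and the deviations of same-numbered libraries correlated over 0.1 in 3 of 4 pairs only (0.066 for number 3, 0.29 to 0.71 for the others, -0.57 to 0.43 between numbers). Untreated replicates 3 and 4 correlated best with dexamethasone replicate 1, not with their own number. Deviations were taken from each group's own mean, so a shift of the library numbered 5 moves the other deviations the opposite way. These correlations therefore cannot decide whether the wells were paired. As a replicate block, the numbers gave 5 cytosolic members higher and 3 lower, and 9 mitochondrial members higher and 13 lower. That was 30 members and 39 associated genes, against 47.3% of all genes. A replicate block with the GC trend removed gave 3 and 5 cytosolic members, 3 and 5 mitochondrial members, 16 members and 31 associated genes, against 43.7% of all genes.

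Leaving out 1 library at a time gave 0 to 2 cytosolic members higher, 1 to 2 lower, 1 to 3 mitochondrial members higher, 1 to 3 lower, 3 to 8 members and 2 to 11 associated genes. The set medians ranged from -0.13 to 0.08 (cytosolic) and -0.20 to 0.01 (mitochondrial). The share of all genes called is not given here for these fits, nor for unscaled values, the simpler variance model or no filter. Their counts therefore cannot be set against it. The causes were not tested. The ratios of the shares (1.04, 0.965 and 1.07) moved by less than the spread between wells in every setting run, and scaling does not alter them.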
